A study of Homo sapiens with 6 samples.

Results

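The genes described here are 33 genes of the Hippo pathway, taken from a list of YAP and TAZ target genes, TEAD factors and Hippo kinases and looked up by human symbol among the 28395 Entrez gene IDs of the deposited count table. All 33 were found, and all 33 had enough counts to enter the test of 11329 genes. By role they fell into 7 genes of the kinase core and its activator NF2, 5 scaffolds and regulators, 5 nuclear effectors (YAP1, WWTR1 and 3 TEAD factors) and 16 target genes. The samples were TC28a2 cells, an immortalised human chondrocyte line, taken 48 h after transfection with a control vector (3 libraries) or a ZEB1 overexpression vector (3 libraries). No other genotype or agent is named for either group. The labels do not state whether replicates were grown separately, and p-values here reflect the spread among these libraries alone, which may be technical. RNA was measured by DRUG-seq, a plate-scale form of RNA sequencing.

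The Hippo pathway is a kinase cascade that restrains growth. The kinases MST1 and MST2 (genes STK4 and STK3) with the adaptor SAV1 activate LATS1 and LATS2, which act with MOB1 and phosphorylate the coactivators YAP and TAZ (genes YAP1 and WWTR1) so that they are kept out of the nucleus. When the cascade is quiet, as in spread cells on stiff matrix, YAP and TAZ enter the nucleus, bind TEAD factors and switch on genes such as CCN1, CCN2 and ANKRD1. In cartilage YAP is known for restraining chondrocyte maturation, and ZEB1, a zinc finger factor that binds E-boxes, is known from work in cancer cells as a partner of YAP and TEAD at shared target genes. YAP and TAZ are controlled largely by phosphorylation and location, which RNA counts do not measure.

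The promoter windows of 4 genes are printed because they show the letters through which YAP, TAZ and ZEB1 are known to reach DNA. Each window holds the 250 bases before the RefSeq start of the gene (GRCh38.p14), read 5′ to 3′ along the gene. Capitals mark the TEAD motif CATTCC, the E-box CACCTG or the AP-1 motif TGANTCA on either strand, so that GGAATG and CAGGTG are their reverse complements. The CCN2 window is the model TEAD promoter, ANKRD1 holds all 3 motifs, NUAK2 had the lowest fold change of all 33 genes, and AXL holds an E-box and no TEAD motif.
CCN2 (chr6:131951373-131951622, minus strand): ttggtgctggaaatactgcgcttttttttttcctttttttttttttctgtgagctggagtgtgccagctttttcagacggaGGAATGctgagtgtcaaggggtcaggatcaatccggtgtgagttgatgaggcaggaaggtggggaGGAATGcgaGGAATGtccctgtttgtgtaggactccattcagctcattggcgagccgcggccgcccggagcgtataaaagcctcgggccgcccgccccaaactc
ANKRD1 (chr10:90921088-90921337, minus strand): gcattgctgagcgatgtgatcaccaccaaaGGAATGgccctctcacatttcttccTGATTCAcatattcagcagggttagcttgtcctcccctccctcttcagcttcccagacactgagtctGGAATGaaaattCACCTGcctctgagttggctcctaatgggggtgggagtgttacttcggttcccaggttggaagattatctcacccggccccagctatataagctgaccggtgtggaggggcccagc
NUAK2 (chr1:205321746-205321995, minus strand): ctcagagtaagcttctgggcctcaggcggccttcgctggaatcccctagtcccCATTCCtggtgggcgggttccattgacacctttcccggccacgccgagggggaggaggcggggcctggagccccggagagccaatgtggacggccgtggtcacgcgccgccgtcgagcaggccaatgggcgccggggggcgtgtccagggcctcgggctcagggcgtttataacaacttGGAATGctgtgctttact
AXL (chr19:41218973-41219222, plus strand): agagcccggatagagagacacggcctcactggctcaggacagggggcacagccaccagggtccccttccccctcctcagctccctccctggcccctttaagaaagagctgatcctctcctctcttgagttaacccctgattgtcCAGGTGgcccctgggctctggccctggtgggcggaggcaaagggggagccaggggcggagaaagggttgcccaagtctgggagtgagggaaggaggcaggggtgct

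The TEAD motifs of CCN2 began 169, 104 and 95 bases before the start, those of ANKRD1 at 220 and 128, and those of NUAK2 at 197 and 18. The E-box of ANKRD1 began 116 bases before the start and that of AXL at 106. Promoter windows were matched for 25 of the 33 genes. For WWTR1, AMOTL1, LATS1 and NF2 the window preceded a start inside the RefSeq gene span, and these windows held none of the motifs. CATTCC was present in 6 of these 25 (24.0%), in PTPN14, YAP1, CCN2, ANKRD1, FOXF2 and NUAK2, and in 11.9% of 27305 promoters of the same length. CACCTG was present in 4 of 25 (16.0%), in LATS2, WWC1, ANKRD1 and AXL, against 17.5% of all promoters, and TGANTCA in 2 of 25 (8.0%), ANKRD1 and F3, against 6.60%. None of the letter patterns overlapped another in the printed windows. These matches are a description of the letters and not of binding, which was not measured.

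ZEB1 itself took 0.0021% to 0.0035% of the counts in the control libraries and 1.08%, 1.35% and 0.698% in ZEB1 replicates 1, 2 and 3. The table does not tell vector transcripts from endogenous ones. Library totals were 5359200 to 5878640 in the controls and 1277632, 1621270 and 3316228 in ZEB1 replicates 1, 2 and 3, and 3 counts, taken as the floor, equalled 0.481 to 0.547 CPM (library-scaled counts, with TMM factors) in the controls and 2.67, 1.93 and 0.894 CPM in the ZEB1 libraries. ZEB1 replicate 3, the deepest of its group, also had the least ZEB1 RNA. Where replicate 3 differed from the other ZEB1 libraries, depth and the amount of ZEB1 RNA cannot be told apart. Every ZEB1 library also had a smaller total than every control, so between the groups depth and the vector cannot be told apart. Of 14 chondrocyte markers only SOX9 had enough counts to be tested (54.2 to 82.9 CPM in the 6 libraries, log2 fold change 0.01), while COL2A1 and ACAN had 0 to 8 counts in each library and COL9A1 and CNMD were at 0. The 14 summed to 56.3 to 86.8 CPM in the controls and 64.9 to 82.6 CPM in the ZEB1 libraries. Of 10 markers of other cell types 3 were tested, of which the leukocyte gene LAPTM5 was lower in every ZEB1 library (20.9 to 31.5 CPM against 34.3 to 37.9), the endothelial gene PECAM1 was higher in every ZEB1 library (3.55 to 7.72 CPM against 1.09 to 1.80) and CD68 overlapped, none with an adjusted p under 0.05. PTPRC, which marks leukocytes, had 2 counts in all, the fat cell gene ADIPOQ was at 0, and the 10 summed lay at 47.8 to 55.2 CPM in the control libraries against 32.9 to 53.4 CPM in the ZEB1 libraries. Their part in the results was not tested.

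In bulk RNA, fewer cells of a type and less RNA per cell cannot be told apart. No gene of the 33 passed the edgeR threshold of an adjusted p of 0.05 over all genes, where 0.00883% of all tested genes passed, a single gene, ZEB1. The lowest adjusted p among the 33 was 0.422, for CCN2. At an unadjusted p under 0.05 there were 2 of the 33 (6.06%), CCN2 and TEAD4, both lower with the ZEB1 vector, beside 9.4% of all tested genes (5.83% higher and 3.57% lower). Scaling by library totals alone turned the split over all genes from 660 higher and 405 lower to 347 higher and 807 lower, shifted the all-gene median fold change from -0.01 to -0.14 (log2) and that of the 33 from -0.08 to -0.21, and left 4 of the 33 at an unadjusted p under 0.05, all lower. Limma-voom called 0 of the 33, with 2 at an unadjusted p under 0.05, beside 995 of all 11329 genes. DESeq2 gave an adjusted p for 11 of the 33 and called 0 of these 11. The other 22, TEAD3, TEAD4, NUAK2, FOXF2 and YAP1 among them, had no adjusted p. With DESeq2 1 of the 33 had an unadjusted p under 0.05, beside 1080 of all 11329 genes. The fold changes leaned one way: 25 of 33 (75.8%) were below 0, beside 51.5% of all tested genes, for a median log2 fold change of -0.08 beside -0.01 for all. In 5 of 33 (15.2%), CCN2, AXL, NUAK2, TEAD3 and TEAD4, the 3 ZEB1 libraries all lay below the 3 controls, and in 0 they all lay above. Over all tested genes 15.1% did not overlap in either direction, 8.16% below and 6.96% above. The share in both directions together was thus near the background, while the 15.2% below stood beside 8.16%. The 33 genes were chosen with earlier results of these data known, so this is a description. By role, 14 of 16 targets, 4 of 5 regulators, 3 of 5 effectors and 4 of 7 core genes were below 0.

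**Figure D1:**
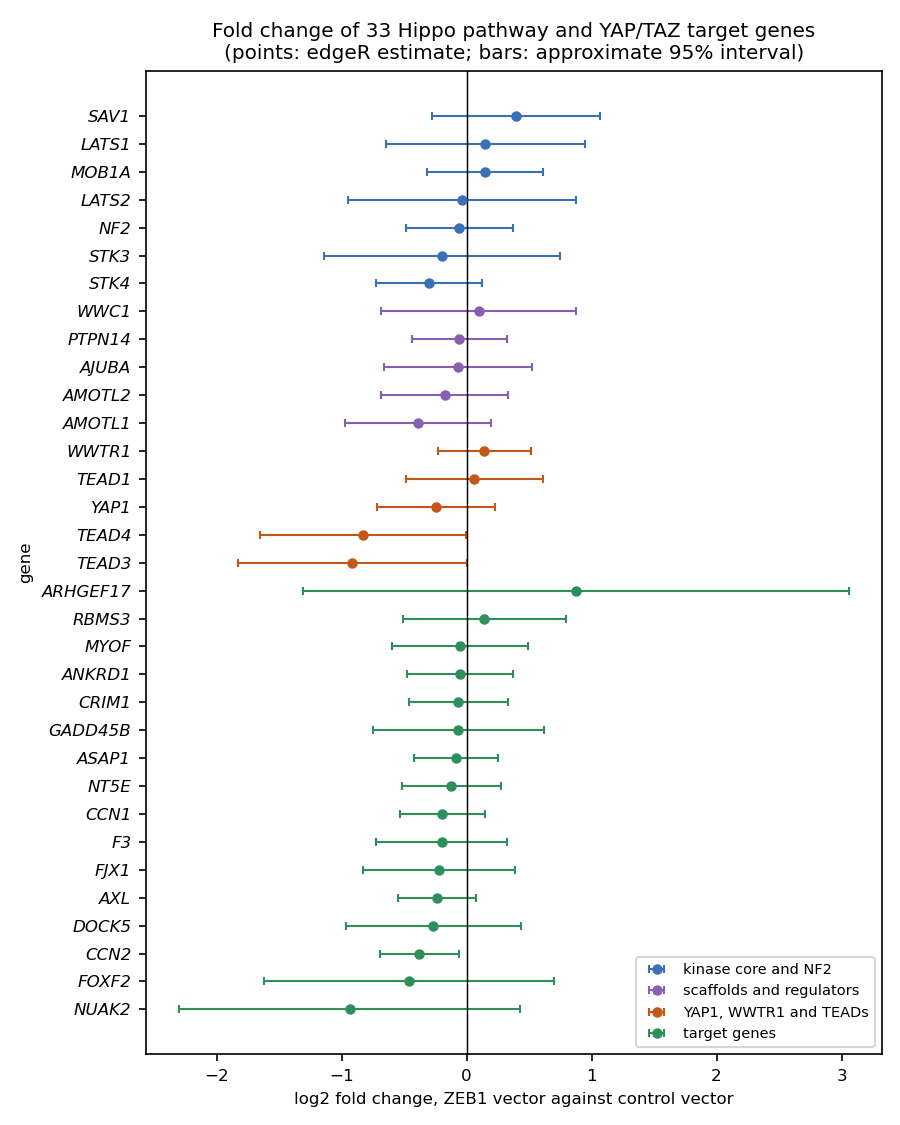
Log2 fold change with the ZEB1 vector against the control vector (x axis) for each of the 33 genes (y axis), colored by role, with bars for the approximate 95% interval. The interval of CCN2 lay below 0, that of TEAD4 ended just below 0 (-0.002), TEAD3 reached 0, and ARHGEF17, with 76 counts in all, had the widest interval.

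The genes of the 2 coactivators gave values on opposite sides of 0, and neither passed the test. YAP1, which encodes YAP, had 314, 341 and 423 counts (50.4, 62.2 and 69.0 CPM) in control replicates 1 to 3 and 44, 82 and 197 counts (39.1, 52.7 and 58.7 CPM) in ZEB1 replicates 1 to 3. The groups overlapped, since ZEB1 replicates 2 and 3 lay within the control range. The approximate 95% interval of its log2 fold change, -0.25 (SE 0.23), ran from -0.72 to 0.23. WWTR1, which encodes TAZ, had 105, 93.7 and 104 CPM in the control libraries against 87.1, 123 and 121 CPM in the ZEB1 libraries. Its lowest and its highest library were both ZEB1 libraries, and the log2 fold change was 0.14 (SE 0.18, interval -0.23 to 0.52). The interval of WWTR1 thus left out a fall or a rise of 2-fold in these libraries, and so did that of YAP1. An antisense gene, WWTR1-AS1, overlaps WWTR1 and had 14 counts in all against 2502 for WWTR1, and the strand setting of the counting is not given in the sources used here.

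The TEAD factors carry YAP and TAZ to DNA, and none of their genes passed the test. TEAD4 (Entrez 7004, chromosome 12, 2959397 to 3040676; spans here and after are RefSeq gene spans in GRCh38.p14) had 130, 92 and 99 control counts against 14, 16 and 28 in the ZEB1 libraries, or 20.9, 16.8 and 16.2 CPM against 12.4, 10.3 and 8.34 CPM. All 3 ZEB1 libraries lay below all 3 controls. The mean was 17.9 ± 2.55 CPM in the control libraries against 10.4 ± 2.05 CPM in the ZEB1 libraries (SD, n = 3), a log2 fold change of -0.83 (SE 0.39) with an edgeR adjusted p of 0.531. TEAD3 (Entrez 7005, chromosome 6, 35473597 to 35497079) had 82, 75 and 147 control counts against 6, 13 and 40 in the ZEB1 libraries, or 13.2, 13.7 and 24.0 CPM against 5.33, 8.36 and 11.9 CPM. These groups did not overlap either, and ZEB1 replicate 3 came nearest to the controls. With every library thinned to the smallest total, TEAD3 did overlap. Its log2 fold change of -0.92 (SE 0.44) also had an edgeR adjusted p of 0.531. TEAD1 had 30.8, 41.4 and 56.1 CPM in the control libraries against 38.2, 40.5 and 53.3 CPM in the ZEB1 libraries, so that every ZEB1 library lay inside the control range, with a log2 fold change of 0.06 (SE 0.26). TEAD2, which is not among the 33 and was added to complete the family after its value was seen, had a log2 fold change of -0.19 (SE 0.42) between groups that overlapped.

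A ratio between paralogs within a library does not depend on how libraries are scaled. The ratio of TEAD3 to TEAD1 counts was 0.427, 0.330 and 0.427 in the controls and 0.140, 0.206 and 0.223 in the ZEB1 libraries, without overlap. A two-sided exact permutation test of this log2 ratio gave p = 0.1, the smallest p that 3 against 3 libraries allow, and 0.467 after Benjamini-Hochberg adjustment over 7 paralog pairs. The TEAD4 to TEAD1 ratio was 0.677, 0.405 and 0.288 in the controls and 0.326, 0.254 and 0.156 in the ZEB1 libraries, which overlapped (exact permutation p = 0.2). The YAP1 to WWTR1 ratio was 0.479, 0.663 and 0.664 in the controls and 0.449, 0.427 and 0.485 in the ZEB1 libraries (exact permutation p = 0.2), where ZEB1 replicate 3 lay just above control replicate 1. The adjusted p was 0.467 for both of these pairs. The other 4 pairs, LATS2 to LATS1, STK3 to STK4, CCN2 to CCN1 and AMOTL1 to AMOTL2, had exact permutation p of 0.5 to 0.8.

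**Figure D2:**
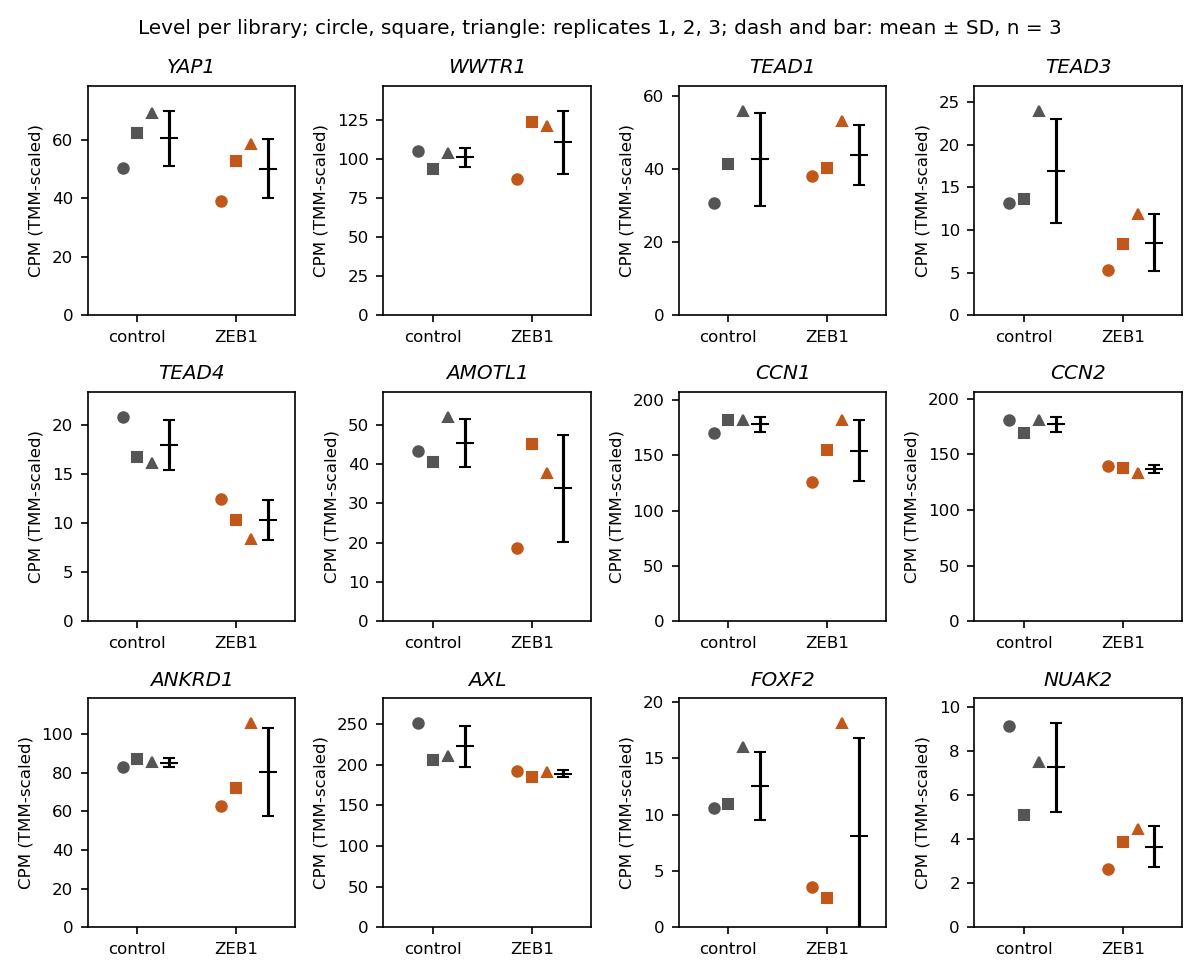
CPM (y axis) of 12 of the genes in the 3 control and 3 ZEB1 libraries (x axis), with replicate 1 as a circle, 2 as a square and 3 as a triangle, and the mean ± SD (n = 3) beside each group. CCN2, AXL, TEAD3, TEAD4 and NUAK2 show no overlap between groups, and FOXF2 is split within the ZEB1 group, where its SD bar would run below 0 and stops at the axis.

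Among the target genes CCN2 had the lowest p. CCN2 (Entrez 1490, chromosome 6, 131948176 to 131951372) encodes CTGF, a matricellular protein of cartilage and fibrosis that is the textbook YAP target. It had 1130, 930 and 1109 control counts against 157, 214 and 446 in the ZEB1 libraries, or 181.3, 169.5 and 181.0 CPM against 139.5, 137.6 and 132.9 CPM. The ZEB1 libraries lay close together and all under the lowest control. Each of them was also shallower than every control, and the part of depth was not tested. The mean was 177 ± 6.68 CPM in the control libraries against 137 ± 3.43 CPM in the ZEB1 libraries (SD, n = 3), a level 1.30-fold higher in the controls, with a log2 fold change of -0.38 (SE 0.15, interval -0.69 to -0.06) and an edgeR adjusted p of 0.422. Leaving out each library in turn gave -0.41 to -0.36.

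CCN1, which encodes the related matricellular protein CYR61, had 170, 182 and 182 CPM in the control libraries against 126, 155 and 182 CPM in the ZEB1 libraries. ZEB1 replicate 3 sat at the level of the controls, and replicates 1 and 2 lay below them. The log2 fold change was -0.19 (SE 0.16), and -0.34 without ZEB1 replicate 3. ANKRD1, which encodes a muscle ankyrin repeat protein and is a common YAP reporter gene, had its lowest 2 values in the same libraries, with 82.8, 87.3 and 85.5 CPM in the control libraries against 63.1, 72.0 and 106 CPM in the ZEB1 libraries. Here ZEB1 replicate 3 was the highest of all 6 libraries, and the log2 fold change was -0.06 (SE 0.20), or -0.34 without that library. CCN2 thus lay below the controls in all 3 ZEB1 libraries, and CCN1 and ANKRD1 only in replicates 1 and 2.

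AXL (Entrez 558, chromosome 19, 41219223 to 41261766), a receptor tyrosine kinase for GAS6, had 252, 206 and 211 CPM in the control libraries against 192, 185 and 191 CPM in the ZEB1 libraries. The 3 ZEB1 libraries lay below the controls, with a mean of 189 ± 4.0 CPM against 223 ± 25.2 CPM (SD, n = 3) and a log2 fold change of -0.24 (SE 0.15, edgeR adjusted p 0.680), or -0.15 without control replicate 1, its highest library. NUAK2 (Entrez 81788, chromosome 1, 205302063 to 205321745), a stress kinase that feeds back on the pathway, had 57, 28 and 46 control counts against 3, 6 and 15 in the ZEB1 libraries, or 9.14, 5.10 and 7.51 CPM against 2.67, 3.86 and 4.47 CPM. ZEB1 replicate 1 was at the floor of 3 counts, and the log2 fold change of -0.94 had an SE of 0.65 (interval -2.30 to 0.43). NUAK2 had too few counts to be tested once libraries were thinned to the smallest total.

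FOXF2 (Entrez 2295, chromosome 6, 1389576 to 1395603), a forkhead factor of mesenchyme, was split within the ZEB1 group. It had 66, 60 and 98 control counts against 4, 4 and 61 in the ZEB1 libraries, or 10.6, 10.9 and 16.0 CPM against 3.55, 2.57 and 18.2 CPM. The 2 low libraries were the shallow ones with more ZEB1 RNA, and the third was above every control. The log2 fold change was -0.46 (SE 0.55), and -2.05 without ZEB1 replicate 3 with an edgeR adjusted p of 0.0811, the lowest adjusted p that any alternative gave for the 33 genes. ARHGEF17, a guanine nucleotide exchange factor, had 18, 0 and 6 counts in the ZEB1 libraries against 12, 19 and 21 in the controls, and its log2 fold change of 0.87 (SE 1.05) became -1.43 without ZEB1 replicate 1.

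The remaining 9 targets had log2 fold changes from -0.26 to 0.14. F3, the tissue factor that starts coagulation, had 34.7 to 46.2 CPM in the control libraries against 31.99 to 38.58 CPM in the ZEB1 libraries, a log2 fold change of -0.20 (SE 0.25). FJX1, the homolog of a fly Fat signalling kinase, had -0.22 (SE 0.29), and DOCK5, an exchange factor for Rac, had -0.26 (SE 0.33). NT5E, the ectonucleotidase CD73 and a mesenchymal stromal marker, had -0.12 (SE 0.19). ASAP1, an Arf GTPase-activating protein of focal adhesions and the gene with the most counts of the 33, had 254 to 345 CPM in the control libraries against 231 to 301 CPM in the ZEB1 libraries, a log2 fold change of -0.08 (SE 0.16). CRIM1, a transmembrane protein that binds BMPs, GADD45B, a stress-induced signalling protein, and MYOF, a membrane repair ferlin, had -0.07, -0.07 and -0.05. RBMS3, an RNA-binding protein, had 0.14 (SE 0.31). Single libraries moved several of these values: DOCK5 was at -0.65 without ZEB1 replicate 3 and -0.05 without ZEB1 replicate 2, FJX1 at -0.50 without ZEB1 replicate 1 and -0.08 without ZEB1 replicate 2, and F3 at -0.08 without control replicate 3. In all 9 of these genes the groups overlapped.

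The kinase core stayed on both sides of 0, with a median log2 fold change of -0.04. STK4, the MST1 kinase, had 141, 136 and 218 CPM in the control libraries against 115, 113 and 169 CPM in the ZEB1 libraries, a log2 fold change of -0.30 (SE 0.20). In each group replicate 3 was the highest, and ZEB1 replicate 3 lay within the control range. The fold change was -0.54 without ZEB1 replicate 3 and -0.05 without control replicate 3. STK3, the MST2 kinase, had 8.65 to 19.3 CPM in the control libraries against 8.04 to 14.8 CPM in the ZEB1 libraries, a log2 fold change of -0.20 (SE 0.45). SAV1 had 33.8, 27.5 and 38.8 CPM in the control libraries against 74.6, 24.4 and 36.3 CPM in the ZEB1 libraries, so that its log2 fold change of 0.39 (SE 0.32) came with a single high library, and without ZEB1 replicate 1 it was -0.11. LATS1 had 0.15 (SE 0.38) and LATS2, which is also a YAP target that feeds back on the pathway, -0.04 (SE 0.44). The control libraries of LATS2 were at 19.4, 8.57 and 10.8 CPM, and that range enclosed all 3 ZEB1 libraries. MOB1A, the activating partner of LATS, had 0.15 (SE 0.22), and reads of its close paralog MOB1B can be assigned to either gene in a way the sources do not state. NF2, which encodes merlin, had 104, 105 and 95.5 CPM in the control libraries against 88.0, 70.1 and 130 CPM in the ZEB1 libraries, a log2 fold change of -0.06 (SE 0.20) between groups that overlapped.

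Of the scaffolds and regulators, the angiomotin family genes AMOTL1 and AMOTL2, whose proteins hold YAP at junctions, had the lowest values. AMOTL1 had 43.3, 40.5 and 52.1 CPM in the control libraries against 18.66, 45.01 and 37.83 CPM in the ZEB1 libraries, a log2 fold change of -0.39 (SE 0.28), or -0.15 without ZEB1 replicate 1, its low library. AMOTL2, itself a YAP target, had 48.5 to 51.6 CPM in the control libraries against 37.3, 59.8 and 35.8 CPM in the ZEB1 libraries, a log2 fold change of -0.18 (SE 0.24). The narrow control range of AMOTL2 lay inside the ZEB1 range. PTPN14, a phosphatase that binds YAP, AJUBA, a LIM protein that restrains LATS, and WWC1, the scaffold KIBRA, had -0.06 (SE 0.18), -0.07 (SE 0.28) and 0.10 (SE 0.37).

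**Figure D3:**
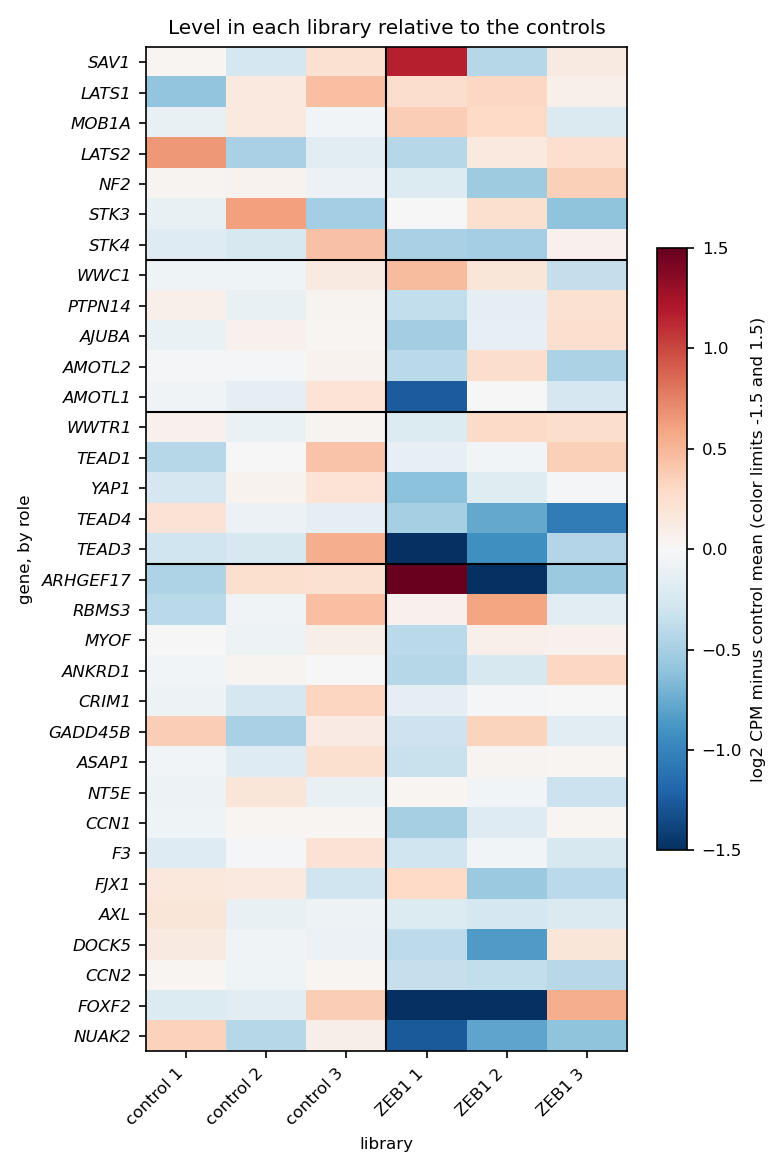
Log2 CPM of each gene minus its mean in the controls (color, limits -1.5 and 1.5) in the 6 libraries (columns), with genes in rows by role. The CCN2 row is pale blue in all 3 ZEB1 libraries, and the TEAD3, TEAD4 and NUAK2 rows are blue in all 3. Many rows differ in sign within the ZEB1 group, among them FOXF2, SAV1, ARHGEF17, NF2 and ANKRD1.

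The size of the downward lean differed between the ZEB1 libraries. The median of the 33 genes, in log2 CPM relative to the control mean, was -0.33, -0.12 and -0.03 in ZEB1 replicates 1, 2 and 3 and -0.06, -0.06 and 0.08 in the controls, while the median of all tested genes was -0.06, -0.01 and 0.01 in the ZEB1 libraries. ZEB1 replicate 3 thus lay inside the control range for the 33 genes. The 16 targets had medians of -0.32, -0.22 and -0.17 in the ZEB1 libraries, below the control range of -0.06 to 0.08 in all 3. Values are relative to the mean of these same controls, which holds the control medians near 0. Lying outside or inside that range is thus a description and not a test. The kinase core had -0.004, 0.14 and 0.08, against -0.11 to 0.05 in the controls. Without ZEB1 replicate 3, 15 of the 33 genes did not overlap between groups, 13 of them below. Over all genes tested in that comparison of 3 against 2 libraries, 37.2% did not overlap, counting both directions. The share below alone was not counted, so the 13 have no like background. An unadjusted edgeR p under 0.05 was found in the same comparison for 5 of the 33, all lower (CCN2, CCN1, STK4, TEAD3 and FOXF2). Over all genes it was found for 2177 of 12095, 1039 of them higher and 1138 lower.

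**Figure D4:**
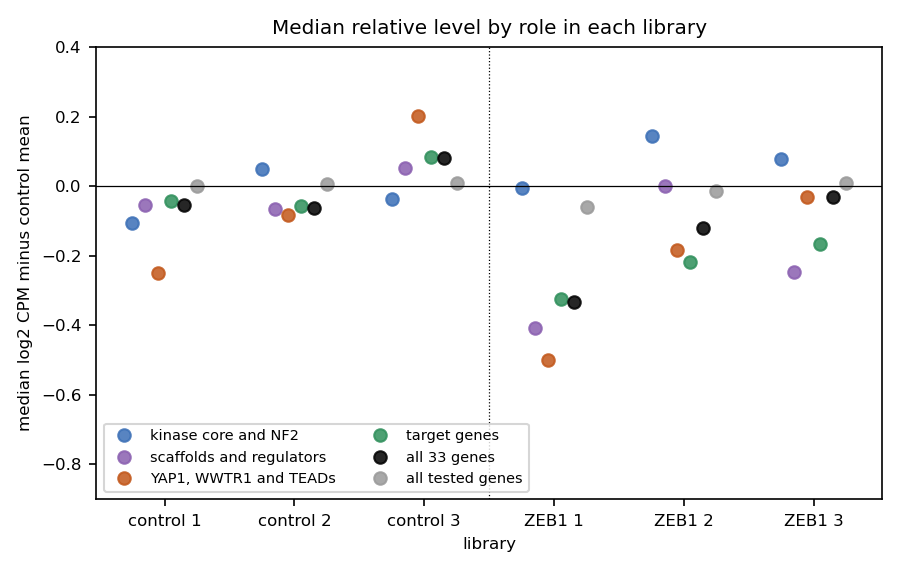
Median over the tested genes of each role (colors) of log2 CPM minus the control mean (y axis) in each library (x axis). The median of all 33 genes goes from -0.33 in ZEB1 replicate 1 to -0.03 in ZEB1 replicate 3, and the kinase core stays near or above 0.

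Other genes of the pathway were read from 2 further lists. Of 46 further Hippo components 35 were tested, and 0 passed the edgeR threshold, with 12 above and 23 below 0 and a median log2 fold change of -0.25. At an unadjusted p under 0.05 there was 1 higher and 2 lower (8.57% of those tested, beside 9.4% of all genes), and 7 (20%) did not overlap between groups, 2 above and 5 below, beside 15.1% of all genes. TAOK1, a kinase upstream of MST and LATS, had 91.9, 66.5 and 82.7 CPM in the control libraries against 160, 99.0 and 110 CPM in the ZEB1 libraries, all above the controls (log2 fold change 0.60, SE 0.20, edgeR adjusted p 0.295). STK38L, the LATS relative NDR2, had 38.8 to 44.6 CPM in the control libraries against 17.8, 19.9 and 35.5 CPM in the ZEB1 libraries (log2 fold change -0.73, SE 0.29, edgeR adjusted p 0.411). It passed without ZEB1 replicate 3, with a log2 fold change of -1.16 and an adjusted p of 0.0420. MAP4K4, a kinase that acts beside MST on LATS, had 468 to 525 CPM in the control libraries against 336, 372 and 451 CPM in the ZEB1 libraries (log2 fold change -0.34, SE 0.15). PPP2R1A, the scaffold of the STRIPAK phosphatase, and YWHAZ, a 14-3-3 protein that holds phosphorylated YAP in the cytoplasm, had -0.25 (SE 0.15) and 0.11 (SE 0.14), and YWHAZ was at -0.03 where libraries were scaled by their totals alone.

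Of 37 further genes reported as YAP or TAZ targets 32 were tested, and 0 passed in edgeR, with 11 above and 21 below 0 and a median of -0.10. At an unadjusted p under 0.05 there were 6, all lower (18.8% of those tested, beside 3.57% of all genes for that direction), and 9 (28.1%) did not overlap, 2 above and 7 below, beside 15.1% of all genes (6.96% above and 8.16% below). The lists were drawn up with earlier results of these data known, so this share is a description. INHBA, the activin A subunit, had 265 to 303 CPM in the control libraries against 130, 170 and 202 CPM in the ZEB1 libraries (log2 fold change -0.73, SE 0.17, edgeR adjusted p 0.161). It passed in DESeq2 (adjusted p 0.00731), in limma-voom (0.0333), with no low-count filter (0.00456) and without ZEB1 replicate 3 (0.00579). CDC42EP3, an effector of CDC42 that organises actin, had 58.1, 65.8 and 66.1 CPM in the control libraries against 36.4, 36.7 and 35.8 CPM in the ZEB1 libraries (log2 fold change -0.80, SE 0.22, edgeR adjusted p 0.220). The SD of its ZEB1 libraries was 0.473 CPM. FLNA, the actin crosslinker filamin A, had -0.40 (SE 0.17), and passed without ZEB1 replicate 3 at -0.64 (adjusted p 0.0269). BIRC5, the mitotic survival protein survivin, had 0.06 (SE 0.14), or -0.07 where libraries were scaled by their totals alone.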

How the data were processed

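RNA of 3 control vector and 3 ZEB1 vector libraries of TC28a2 cells was analysed. The authors deposited raw counts per Entrez gene. The submitters' processing notes list HISAT2, featureCounts, Subread and GRCh38; tool versions, molecular identifiers, strand setting and annotation are not given there, and floors cover counting error only. RefSeq (GRCh38.p14) named 27745 of 28395 IDs and gave coordinates and promoters.

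The test was edgeR 4.0.16's two-sided quasi-likelihood test (R 4.3.3) with TMM scaling, filterByExpr, robust fitting and group as the only term, with Benjamini-Hochberg adjustment over 11329 genes. SEs were derived from each F statistic and 95% intervals from these SEs, so both are approximate. Log2 CPM used a prior count of 2. All 33 genes are named, with ZEB1, and from each of 2 lists of other pathway genes the 3 with the smallest unadjusted p and the 3 with the highest mean count. A gene that this rule selects is not reported here. Members and lists were chosen with earlier results of these data known. On simulated data with 200 genes changed between these groups, edgeR recovered 52.5% of genes changed 2-fold among 10979 tested, with 7 false calls. It recovered 85% of those changed 4-fold among 10981, with 9 false calls. Benjamini-Hochberg adjustment depends on how many genes have small p-values, and the main test called 1 gene. These shares are thus not the odds of detecting such a change in the 33 genes, where TEAD3 at -0.92 had an adjusted p of 0.531.

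Alternatives were RLE factors, library size alone, no low-count filter, a mean count of at least 20, binomial thinning to 1277632 counts, a replicate block, each library left out in turn, DESeq2 1.42.0 and limma-voom (limma 3.58.1).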

Additional observations from a re-analysis of the deposited data

How the results depend on the processing

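None of the 33 genes passed in any of the 14 alternatives that gave it an adjusted p, which DESeq2 did for 11 of them, thinning for 31 and a mean count of at least 20 for 32, and their median log2 fold change stayed below 0, from -0.21 to -0.07. ZEB1 passed under all 14. The direction was kept under every alternative that tested the gene in 16 of the 33 genes, 14 lower and 2 higher, among them CCN2, AXL, TEAD3, TEAD4, CCN1, YAP1 and FOXF2. An unadjusted p under 0.05, by the test of each alternative, was reached by CCN2 in 10 of 14, by TEAD3 in 5 and by TEAD4 in 3. All genes called numbered 1 in the main test, 127 with no low-count filter, 174 with DESeq2, 58 with limma-voom and 1 to 409 on leaving out single libraries, where 409 is without ZEB1 replicate 3. Genes of the 33 without overlap between groups numbered 5 to 15 on leaving out single libraries, beside 20.5% to 37.2% of all genes, 7 with library size only (all genes 16.8%) and 4 of 31 with thinning (AXL, CCN2, TEAD4 and YAP1, all genes 14.5%). ARHGEF17, NUAK2, FOXF2 and STK3 had the lowest mean counts.

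Log2 fold changes that changed sign were as follows. With limma-voom, AJUBA was at 0.0101, ANKRD1 at 0.0011, ARHGEF17 at -0.64, LATS2 at 0.11 and WWC1 at -0.0639. With library size only, BIRC5 was at -0.0729, TEAD1 at -0.0567, WWC1 at -0.0442 and YWHAZ at -0.0254; this scaling moved the median of all genes from -0.01 to -0.14. With thinning, DOCK5 was at 0.0413, GADD45B at 0.0740, LATS1 at -0.20, LATS2 at 0.16, NF2 at 0.0439 and TEAD1 at -0.15. The replicate block gave ARHGEF17 at -0.13 and LATS2 at 0.0395, called 1 gene over the whole table and 0 of the 33, and changed no call. Deviations of libraries with the same number correlated at -0.03, -0.01 and 0.01, and those with different numbers at -0.05 to 0.05. No pairing by number was seen, but such low correlations are too weak a check to settle whether libraries were paired. On leaving out single libraries the range was -0.31 to 0.0895 for AJUBA, -0.34 to 0.0804 for ANKRD1, -1.43 to 1.46 for ARHGEF17, -0.18 to 0.0440 for ASAP1, -0.19 to 0.11 for CRIM1, -0.28 to 0.12 for GADD45B, -0.11 to 0.40 for LATS1, -0.27 to 0.36 for LATS2, -0.14 to 0.0656 for MYOF, -0.38 to 0.13 for NF2, -0.26 to 0.0602 for PTPN14, -0.12 to 0.40 for RBMS3, -0.11 to 0.67 for SAV1, -0.43 to 0.19 for STK3, -0.14 to 0.30 for TEAD1 and -0.11 to 0.32 for WWC1. The cause was not tested.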
